A study of Mus musculus with 40 samples.

Results

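The shortening of the poly(A) tail is the step that starts the decay of most mRNAs, and the genes described here encode the enzymes that carry it out and the small adaptor proteins that bring them to their targets. They were taken by symbol from the deposited table: Cnot1, Cnot6, Cnot6l, Cnot7, Cnot8, Pan2, Pan3, Btg1, Btg2 and Tob1, 10 genes of 27179 listed. No measured value entered this rule, but the members were chosen with earlier results of these data known. The table holds 40 libraries of poly(A) RNA from bone marrow-derived macrophages (BMDMs), cells grown from the marrow of adult male mice with M-CSF from conditioned medium. BMDMs of 4 WT and 4 Cpeb4-/- mice, all on a mixed C57BL/6J and 129 background, were left untreated (0 hr) or treated with 10 ng/ml LPS, a bacterial cell wall component that activates TLR4, for 1, 3, 6 or 9 hr. Cpeb4-/- mice lack CPEB4 in every cell, an RNA-binding protein that acts on poly(A) tails. Each mouse gave 1 library per time, so the 5 times share the same 4 mice per genotype. Mice are called by the numbers in the labels: 25, 69, 87 and 88 for WT, and 2, 3, 55 and 62 for Cpeb4-/-. By the cage labels WT mice 87 and 88 shared a cage, as did Cpeb4-/- mice 2 and 3. No cage held both genotypes, so cage and genotype cannot be told apart. Values are regularized log (rlog) levels on a log2 scale, corrected for library size, so that a difference of 1 is a 2-fold difference. They are not divided by gene length, so levels are compared within a gene only. A bulk library cannot tell more RNA per cell from more cells that hold it.

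Poly(A) tails are removed by a pair of enzyme systems. The PAN2-PAN3 complex, in which PAN2 is the nuclease and PAN3 tethers it to the poly(A)-binding protein, trims long tails. The CCR4-NOT complex is built on the scaffold CNOT1 and carries a pair of nuclease positions, of which one is taken by CNOT6 or CNOT6L (the CCR4 type) and the other by CNOT7 or CNOT8 (the CAF1 type). CNOT1 is also the docking surface for tristetraprolin, which brings the complex to AU-rich inflammatory mRNAs in macrophages. BTG1, BTG2 and TOB1 belong to the antiproliferative BTG/TOB family, bind the CAF1 nucleases through their shared domain and raise deadenylation. TOB proteins also bind the poly(A)-binding protein and can link CPEB-family proteins to the nuclease.

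Of the members, Btg2 and Btg1 had the largest changes with LPS and Tob1 the largest difference between the genotypes, so the 250 bases before their annotated starts are shown first, from RefSeq promoters of GRCm38.p6, 5′ to 3′. Capitals mark matches on either strand to the cAMP response element TGACGTCA or its core TGACG, the AP-1 site TGANTCA, the NF-kB letters GGGNNTTTC, the CCAAT box CCAAT or the TATA box TATAAA. The core lies within the full element, so a full element is also counted as a core.
Btg1, chr10:96616751-96617000, plus strand: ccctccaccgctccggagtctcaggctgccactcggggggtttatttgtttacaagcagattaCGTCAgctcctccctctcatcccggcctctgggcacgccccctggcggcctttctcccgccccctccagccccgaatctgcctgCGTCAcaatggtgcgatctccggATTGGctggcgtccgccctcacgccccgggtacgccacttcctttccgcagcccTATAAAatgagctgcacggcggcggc
Btg2, chr1:134079156-134079405, minus strand: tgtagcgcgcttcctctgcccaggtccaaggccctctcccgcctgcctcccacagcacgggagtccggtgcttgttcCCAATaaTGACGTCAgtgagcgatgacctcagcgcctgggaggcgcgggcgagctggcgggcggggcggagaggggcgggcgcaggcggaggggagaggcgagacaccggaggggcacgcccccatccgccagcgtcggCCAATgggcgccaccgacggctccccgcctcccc
Tob1, chr11:94211204-94211453, plus strand: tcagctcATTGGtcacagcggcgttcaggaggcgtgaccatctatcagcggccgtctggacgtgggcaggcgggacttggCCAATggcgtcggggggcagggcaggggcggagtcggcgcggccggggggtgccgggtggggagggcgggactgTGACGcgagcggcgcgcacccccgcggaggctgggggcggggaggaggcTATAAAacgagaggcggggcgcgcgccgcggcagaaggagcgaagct
Btg2 held the full cAMP response element at -166 and 2 CCAAT boxes. The sequence is shown because Btg2 had the widest range of the members. The full element was found in 1.55% of all 32851 promoters of the same length. Btg1 held the core at -187 and -103, on the opposite strand, with a CCAAT box at -80 and a TATA box at -26. Tob1 held the core at -96, CCAAT boxes at -170 and -243 and a TATA box at -47. The core was found in 17.8% of all promoters, the CCAAT box in 33.8% and the TATA box in 12.4%, so these matches are common letters. No AP-1 or NF-kB letters, found in 6.75% and 3.72% of all promoters, were in these windows. Of the 10 members, 8 had a promoter in the table.

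All 10 members passed the filter on low values (a mean of log2 of 5 or more, on the rlog scale), as did 13103 genes over the 40 libraries. Each fit was made with limma over every gene past this filter, adjusted p are Benjamini-Hochberg values over all those genes, and a gene is called when its adjusted p is under 0.05. Over all 27179 rows, not only the genes past the filter, libraries of a group correlated at 0.998 to 0.999, and no libraries were identical. Of these rows 6395 were at 0 in every library. All 8 macrophage markers were above the filter, with means of 9.66 to 18.2. Of 23 markers of other cell types, 3 were above it: the neutrophil genes S100a8 and S100a9 at 6.34 and 5.11 and the dendritic cell gene Zbtb46 at 2.92. The summed macrophage markers were lower in Cpeb4-/- BMDMs at every time, without overlap (18.7 to 18.9 against 19.0 to 19.3 on a log2 scale at 0 hr, and 18.9 to 19.1 against 19.2 to 19.3 at 9 hr). The summed dendritic cell markers overlapped between the genotypes at the other times but were higher in Cpeb4-/- BMDMs at 3 hr (4.88 to 5.15 against 4.10 to 4.28), and the summed neutrophil markers overlapped at all 5 times. Among cell types with no marker above the filter, some sums did not overlap at 1 hr. In Cpeb4-/- BMDMs that of B cells was higher (2.31 to 2.74 against 2.00 to 2.29). Those of mast cells or basophils (1.47 to 1.54 against 1.60 to 2.39) and myeloid progenitors (0.82 to 0.90 against 0.93 to 1.18) were lower. The sums are of levels taken off the log scale, so the highest marker weighs most, which for macrophages is Lyz2 (mean 18.2). No genotype values of single markers are given. The part of these markers in the genotype differences below was not tested. Cpeb4 itself (chr11:31872211-31935634, mm10) was summed over the whole gene. Reads from exons outside the deletion may be included, which was not tested. At 6 hr Cpeb4 gave 10.45 ± 0.26 for the 4 WT and 9.18 ± 0.45 for the 4 Cpeb4-/- libraries (mean ± SD), a difference of -1.27 (adjusted p = 0.0011). At the other times the libraries overlapped and the Cpeb4 difference ran from -0.55 at 3 hr to 0.37 at 1 hr. Cpeb4 therefore checks the genotype labels at 6 hr only.

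A measure of the libraries has to stand beside the values of the nuclease subunits. For each library a length contrast was computed, the median deviation of the 1197 genes with the longest coding transcripts minus that of the 1197 with the shortest, without the members. Within groups, over the 40 libraries, Cnot6 followed it at r = 0.976, Cnot1 at 0.956, Cnot7 at 0.949, Cnot6l at 0.939 and Pan3 at 0.809, and Cnot8 ran against it at -0.897. By their longest coding isoform Cnot8 is the shortest member, at 2099 bases, but Cnot7 has 2982 bases and Btg2 and Tob1 have 2743 and 2288. These are descriptions over libraries that share mice and groups. The adaptors followed it less: r was 0.275 for Btg1, -0.536 for Btg2 and 0.461 for Tob1. The contrast was lower in WT than in Cpeb4-/- libraries at 0 hr (means -0.26 and -0.05), 1 hr (-0.32 and 0.18), 3 hr (-0.10 and 0.12) and 9 hr (-0.01 and 0.19), and alike at 6 hr (0.14 and 0.15). The 4 libraries under -0.4 were WT mouse 87 at 0, 1 and 3 hr and WT mouse 88 at 1 hr. Results are given below without and with the contrast as a covariate, a fit added after the values had been seen. With the covariate, Cpeb4 was lower in Cpeb4-/- BMDMs at all 5 times, by 0.67 at 9 hr to 1.29 at 6 hr (adjusted p from 2.5e-07 to 0.0012).

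**Figure D1:**
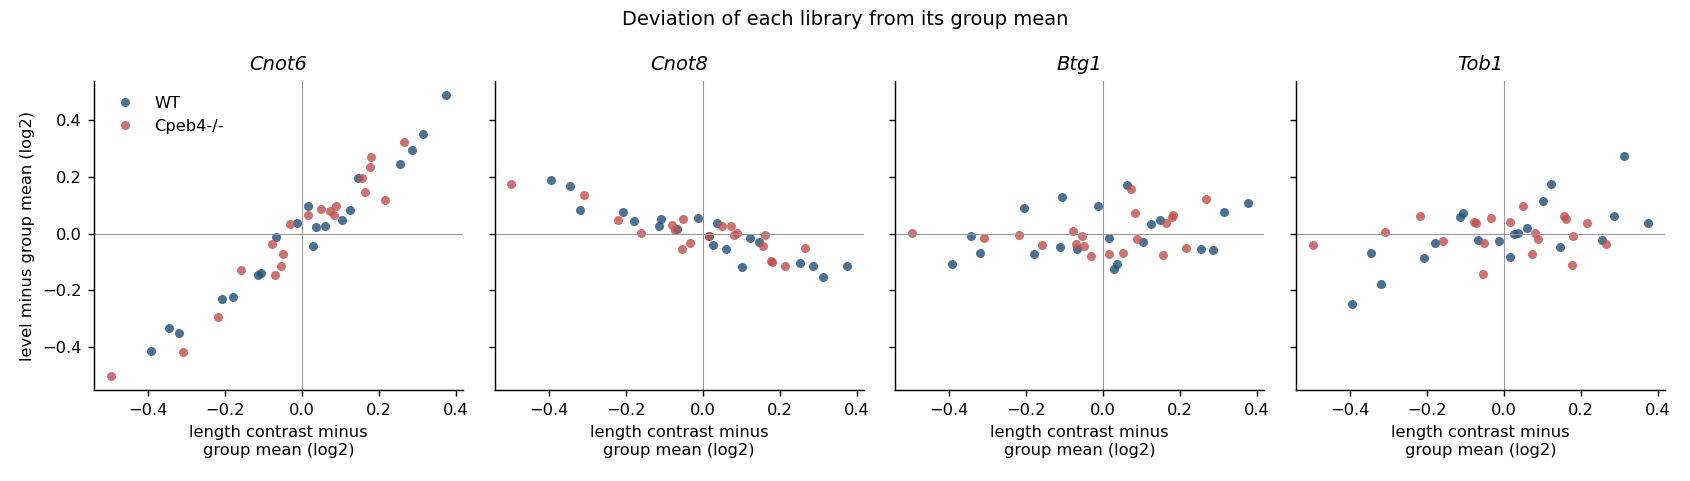
Each point is one of the 40 libraries (blue, WT; red, Cpeb4-/-), plotted by its length contrast minus the group mean (horizontal axis, log2) and the level of the gene minus the group mean (vertical axis, log2). Cnot6 rises with the contrast (r = 0.976), Cnot8 falls (r = -0.897), and Btg1 (r = 0.275) and Tob1 (r = 0.461) follow it less.

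Btg2 (chr1:134075170-134079120, minus strand, mm10), an immediate early gene that p53 and growth or stress signals induce, made the largest change with LPS of the 10 members and made it in 2 waves. In WT BMDMs its level was 10.93, 10.93, 10.95 and 10.98 untreated (mice 25, 69, 87 and 88), 12.69, 12.61, 12.89 and 12.69 at 1 hr, 10.48, 10.53, 10.56 and 10.46 at 3 hr, 11.48, 11.56, 11.51 and 11.45 at 6 hr, and 10.75, 10.89, 10.76 and 10.78 at 9 hr. Each of the 5 WT groups was separate from the other 4. At 1 hr Btg2 had risen 3.41-fold (1.77 ± 0.05, SE; adjusted p = 2.1e-16). From 1 to 3 hr it fell by 2.21 (adjusted p = 5.1e-18), to below the untreated level (-0.44, adjusted p = 2.1e-07). From 3 to 6 hr it rose again by 0.99 (adjusted p = 1.8e-12) and from 6 to 9 hr it fell by 0.71 (adjusted p = 6.7e-10), each step in 4 of 4 mice. The level at 9 hr was below untreated by 0.15 (adjusted p = 0.012; 0.14 with adjusted p = 0.076 without mouse 25 or 88). The same sequence was seen in Cpeb4-/- BMDMs, with steps of 1.81 from 0 to 1 hr, -2.05 from 1 to 3 hr, 0.92 from 3 to 6 hr and -0.75 from 6 to 9 hr (adjusted p from 1.6e-18 to 3.1e-11). These steps between times were added to the planned comparisons after the values had been seen. Between 1 and 3 hr, 60.1% of the genes tested changed in WT and 64% in Cpeb4-/- BMDMs, between 3 and 6 hr 63.7% and 64.4%, and between 6 and 9 hr 51.4% and 53.6%. Of the 10 members 8 and 7 did so in the first of these steps, 3 and 3 in the next and 4 and 4 in the last.

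Btg1 (chr10:96617006-96622809, plus strand), an adaptor known for holding cells quiescent, rose at 1 hr and had a lower mean at each later time, although its step from 6 to 9 hr, of -0.21 in WT and -0.23 in Cpeb4-/- BMDMs (adjusted p = 0.015 and 0.0011), was 0.0017 and -0.03 after quantile normalization. In WT BMDMs it was at 12.34, 12.36, 12.38 and 12.49 untreated and at 13.34, 13.47, 13.29 and 13.49 at 1 hr (mice 25, 69, 87 and 88). In Cpeb4-/- BMDMs it was at 12.49, 12.60, 12.53 and 12.51 untreated and at 13.61, 13.69, 13.55 and 13.67 at 1 hr (mice 2, 3, 55 and 62). The groups did not overlap, and the rise was 2.01-fold in WT (1.01 ± 0.07, SE; adjusted p = 1.4e-10) and 2.14-fold in Cpeb4-/- BMDMs (1.10 ± 0.05; adjusted p = 2.7e-13). It was larger than the spread between mice in both. By 9 hr Btg1 was below the untreated level in both genotypes, by 0.24 in WT (adjusted p = 0.0039) and 0.20 in Cpeb4-/- BMDMs (adjusted p = 0.0016). At 3 hr the sign of its change from untreated depended on the scaling: 0.28 in WT and 0.41 in Cpeb4-/- BMDMs on the deposited values, but -0.24 and -0.13 after quantile normalization. Quantile normalization lowered the change from untreated to 3 hr of the 545 genes with a mean rlog of 13 or more by a median of 0.60 in WT and 0.56 in Cpeb4-/- BMDMs. Btg1 averaged below 13 and is not among these genes. The shift of genes at its level was not computed. At 6 hr neither genotype's change of Btg1 passed the threshold (-0.03 and 0.02).

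Tob1 (chr11:94211454-94215495, plus strand) went the other way. It did not change at 1 hr past the threshold (0.09 in WT, adjusted p = 0.47, and -0.05 in Cpeb4-/- BMDMs, adjusted p = 0.55). At 3 hr it was lower by 0.68 in WT (0.626-fold, adjusted p = 1.3e-06) and by 0.77 in Cpeb4-/- BMDMs (0.585-fold, adjusted p = 8.0e-11), in 4 of 4 mice of each. In WT BMDMs the later values were near that one, at -0.71 from untreated at 6 hr and -0.77 at 9 hr (adjusted p = 4.1e-07 and 1.7e-07). In Cpeb4-/- BMDMs it was at -0.66 and -0.46 (adjusted p = 5.9e-10 and 2.5e-07), and from 6 to 9 hr the level went up by 0.20 (adjusted p = 0.0039; 0.12 with adjusted p = 0.067 after quantile normalization), in 4 of 4 mice. In WT BMDMs the step from 6 to 9 hr was -0.06 (adjusted p = 0.61).

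**Figure D2:**
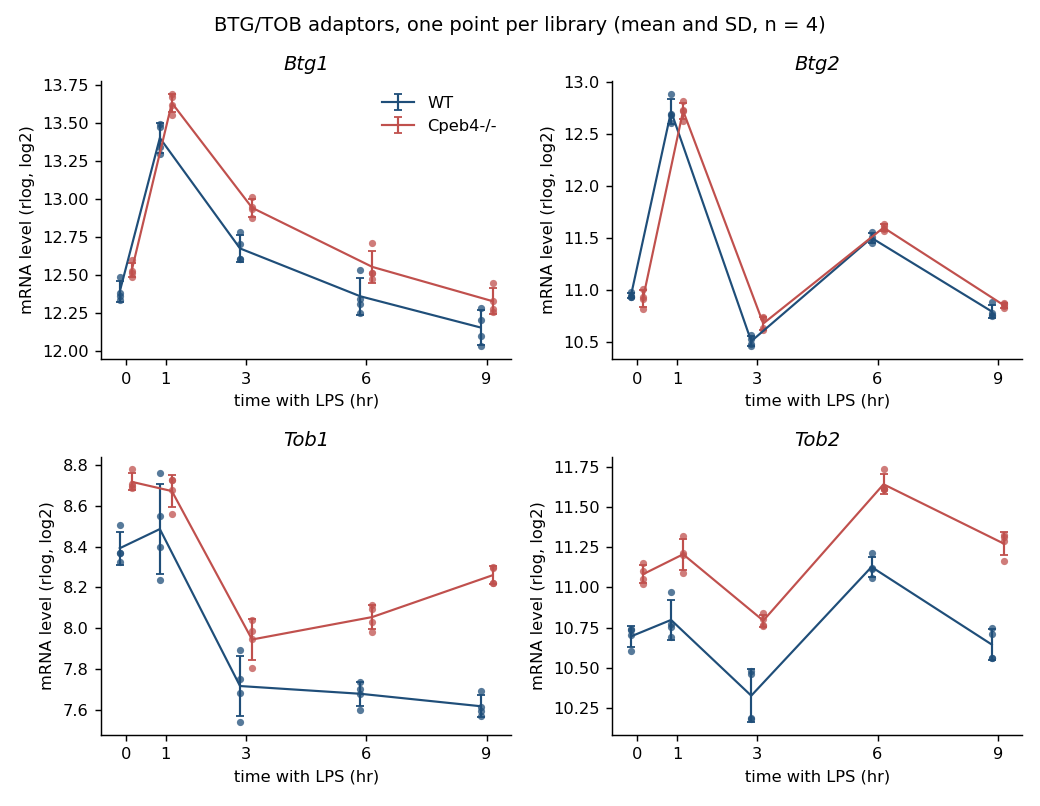
Level (rlog, log2, vertical axis) of Btg1, Btg2, Tob1 and the related Tob2 against hours with LPS (horizontal axis). Each point is a library (blue, WT; red, Cpeb4-/-), and lines and bars are the mean and SD of 4 mice, drawn side by side. Btg2 peaks at 1 hr and again at 6 hr, Btg1 peaks at 1 hr, and the Tob1 libraries of the genotypes do not overlap at 0, 6 and 9 hr.

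Among the nucleases of the CAF1 type, Cnot7 (chr8:40492540-40515847, minus strand) rose with LPS and Cnot8 (chr11:58104153-58118594, plus strand) did not. Cnot7 in WT BMDMs was at 9.75, 9.79, 9.51 and 9.69 untreated and at 10.46, 10.42, 10.39 and 10.54 at 6 hr. These ranges did not overlap. The rise at 6 hr was 1.70-fold in WT (0.77 ± 0.09, SE; adjusted p = 2.0e-07) and 1.73-fold in Cpeb4-/- BMDMs (0.79 ± 0.07; adjusted p = 3.1e-09), and with the length contrast as a covariate it was 0.55 and 0.69. It was already higher at 1 hr, by 0.27 in WT (adjusted p = 0.030, lost without mouse 25, 69 or 88, at 0.23 to 0.31) and by 0.44 in Cpeb4-/- BMDMs (adjusted p = 5.2e-05), and it fell from 6 to 9 hr, by 0.34 in WT (adjusted p = 0.0041) and by 0.25 in Cpeb4-/- BMDMs (adjusted p = 0.0062; 0.22 with adjusted p = 0.075 without mouse 55). Cnot8 was lower at 3 hr, at -0.34 in WT and -0.33 in Cpeb4-/- BMDMs (adjusted p = 0.00031 and 3.0e-05), in 4 of 4 mice of each. The change of Cnot8 from untreated remained below 0 at 6 hr in WT (-0.22, adjusted p = 0.0081) but not past the threshold in Cpeb4-/- BMDMs (-0.04, adjusted p = 0.48). With the length contrast as a covariate the WT value was -0.06 (adjusted p = 0.12), and without WT mouse 88 it was -0.20 (adjusted p = 0.052).

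Of the CCR4-type nucleases, Cnot6 (chr11:49671503-49712723, minus strand) was higher and Cnot6l (chr5:96070333-96164171, minus strand) lower at 6 hr. Cnot6 was at 8.84 to 9.42 untreated and 9.64 to 9.88 at 6 hr in WT, a rise of 0.61 (adjusted p = 0.0029), and rose by 0.58 in Cpeb4-/- BMDMs (adjusted p = 0.0017; 0.42 with adjusted p = 0.054 without Cpeb4-/- mouse 55). Cnot6l was lower at 3, 6 and 9 hr in both genotypes, by 0.30 at 6 hr to 0.49 at 9 hr in WT (adjusted p from 0.00099 to 0.028) and by 0.42 to 0.54 in Cpeb4-/- BMDMs (adjusted p from 2.1e-05 to 0.00042). The WT call at 6 hr was lost without mouse 25, 69 or 88 (-0.26, -0.25 and -0.29) and after quantile normalization (-0.22, adjusted p = 0.11), and that at 3 hr was lost without mouse 25 (-0.30). The covariate moved these genes apart in size but not in sign: at 6 hr Cnot6 was at 0.18 and Cnot6l at -0.58 in WT, and at 0.37 and -0.67 in Cpeb4-/- BMDMs, all past the threshold.

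The scaffold Cnot1 (chr8:95719451-95807464, minus strand) was higher at 6 hr in WT by 0.58 (adjusted p = 0.0013; 0.22 with adjusted p = 0.0016 with the covariate; 0.28 with adjusted p = 0.082 after quantile normalization). In Cpeb4-/- BMDMs it was at 0.35 at 6 hr (adjusted p = 0.051; 0.12 with adjusted p = 0.0093 with the covariate). Cnot1 was also higher at 9 hr, by 0.43 in WT and 0.42 in Cpeb4-/- BMDMs (adjusted p = 0.014 and 0.022), and at 3 hr it was at 0.31 in WT (adjusted p = 0.068) and 0.39 in Cpeb4-/- BMDMs (adjusted p = 0.033). After quantile normalization these calls were lost, at 0.26 and 0.23 at 9 hr and 0.19 at 3 hr. The Cpeb4-/- call at 3 hr was lost without mouse 55 or 62 (0.36 and 0.43) and that at 9 hr without mouse 3, 55 or 62 (0.33 to 0.40), while with the covariate Cnot1 was past the threshold at 3, 6 and 9 hr in both genotypes (0.12 to 0.22). Pan2 (chr10:128303335-128321358, plus strand), the nuclease of the other complex, fell at 3 hr by 0.42 in WT and 0.41 in Cpeb4-/- BMDMs (adjusted p = 0.00017 and 2.4e-06) and was below untreated at 9 hr, by 0.31 and 0.37 (adjusted p = 0.0026 and 9.4e-06). At 6 hr it was at -0.08 from untreated in WT (adjusted p = 0.42) and at -0.28 in Cpeb4-/- BMDMs (adjusted p = 0.00018). From 3 to 6 hr it rose by 0.35 in WT (adjusted p = 0.0013), and the step in Cpeb4-/- BMDMs was 0.13 (adjusted p = 0.057). Pan3 (chr5:147430161-147548502, plus strand), its partner, spanned 0.27 over the 10 group means, the least of the members. The Pan3 calls from untreated were 0.21 at 6 hr in WT (adjusted p = 0.033) and 0.15 at 1 hr in Cpeb4-/- BMDMs (adjusted p = 0.044). Both were lost with the covariate (0.03 and 0.08), after quantile normalization (-0.09 and 0.03), and without WT mouse 69 or 88 (0.23 and 0.19) or Cpeb4-/- mouse 3, 55 or 62 (0.12 to 0.17).

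**Figure D3:**
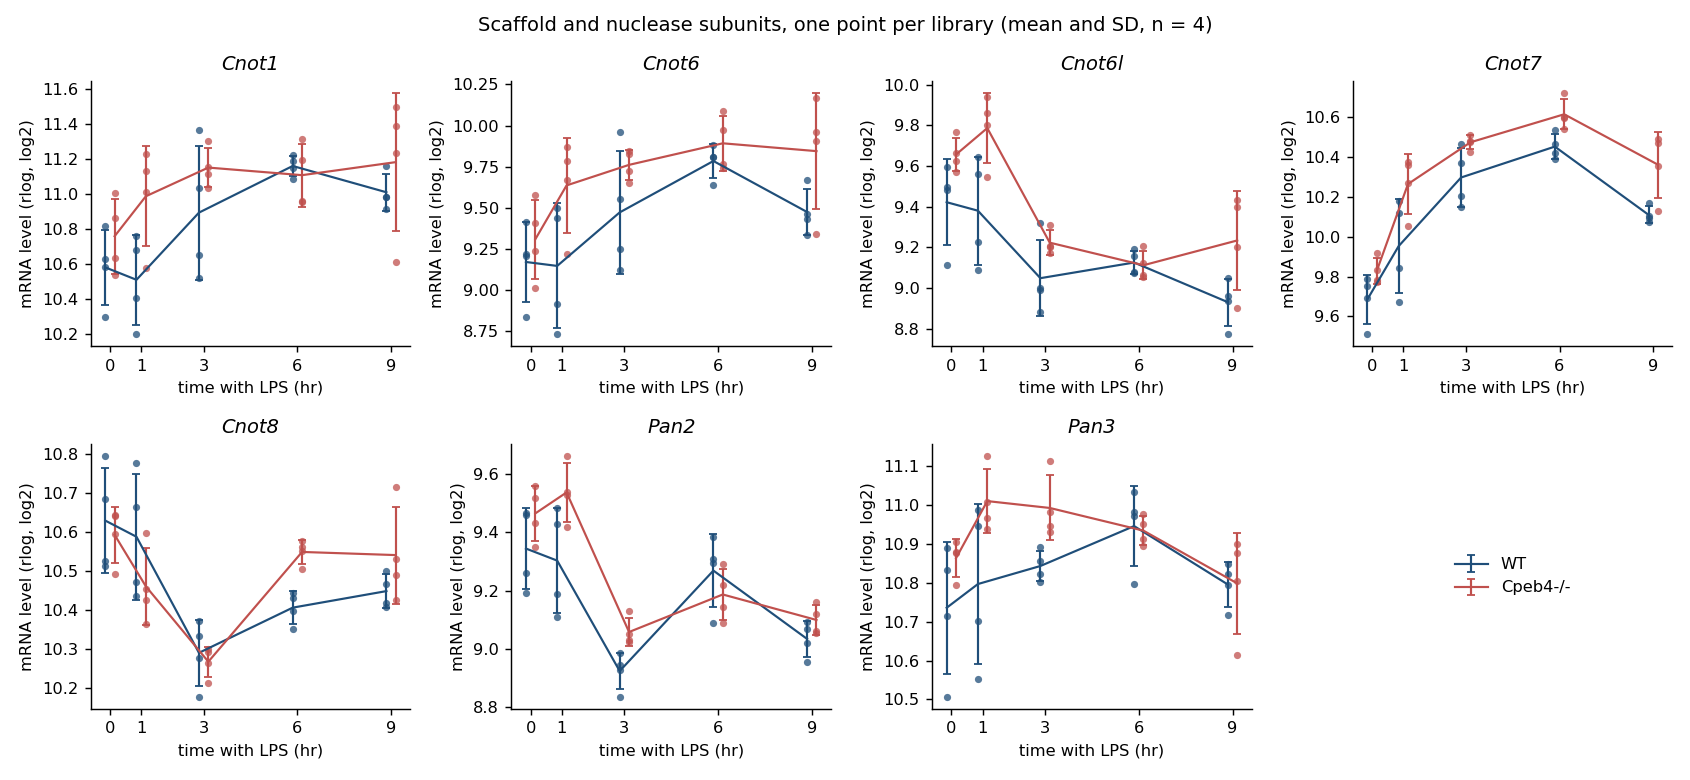
Level (rlog, log2, vertical axis) of the scaffold and nuclease subunits against hours with LPS (horizontal axis). Each point is a library (blue, WT; red, Cpeb4-/-), and lines and bars are the mean and SD of 4 mice. Cnot7 reaches its highest mean at 6 hr (10.45 in WT and 10.62 in Cpeb4-/-), Cnot8 is lowest at 3 hr, and the libraries of one group can lie far apart, with an SD of up to 0.39 for Cnot1 and 0.38 for Cnot6.

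In counts, 3 of 10 members were higher and 0 lower than untreated at 1 hr in WT BMDMs, where 17.3% of all genes tested were higher and 16.6% lower. At 3 hr 2 were higher and 5 lower (all genes 32.5% and 35.3%), at 6 hr 5 and 3 (38.7% and 39.2%), and at 9 hr 2 and 6 (35.9% and 35.6%). In Cpeb4-/- BMDMs 4 were higher and 0 lower at 1 hr (all genes 23.8% and 20%), 4 and 5 at 3 hr (34.4% and 36.9%), 3 and 3 at 6 hr (39% and 40.1%), and 3 and 4 at 9 hr (36.4% and 36.4%). The median size of the members' changes in WT was 0.07 at 1 hr and 0.43 at 6 hr, against 0.16 and 0.55 for all genes. After quantile normalization the share of higher among all called genes at 1 hr went from 51.0% to 37.9% in WT and from 54.3% to 38.1% in Cpeb4-/- BMDMs, and the members' counts at 1 hr were 3 and 0 in WT and 3 and 1 in Cpeb4-/- BMDMs. The members' counts of higher and lower then were 1 and 6 at 3 hr, 3 and 3 at 6 hr and 1 and 6 at 9 hr in WT, and 2 and 6, 3 and 6, and 2 and 7 in Cpeb4-/- BMDMs. Counts that rested on 1 mouse were those at 6 hr in WT, 5 without mouse 88, and at 1 hr in Cpeb4-/- BMDMs, 8 without mouse 2.

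Comparing the genotypes asks whether loss of CPEB4 goes with other levels of the deadenylation machinery. Tob1 was higher in Cpeb4-/- than in WT BMDMs, with the largest difference at 9 hr. At 9 hr it stood at 7.62, 7.69, 7.59 and 7.57 in WT and at 8.22, 8.22, 8.30 and 8.30 in Cpeb4-/- BMDMs. At 6 hr it stood at 7.68, 7.70, 7.74 and 7.60 and at 8.09, 7.98, 8.12 and 8.03. Every Cpeb4-/- library was above every WT library at both times. The difference was 1.56-fold at 9 hr (0.64, 95% interval 0.51 to 0.78; adjusted p = 0.00068) and 1.30-fold at 6 hr (0.38, 0.24 to 0.51; adjusted p = 0.0019). Both held in all 16 alternative analyses, within 0.61 to 0.67 and 0.35 to 0.40, and in each of the 2 batches in the labels, which hold 2 mice of each genotype (0.67 and 0.62 at 9 hr, and 0.37 and 0.39 at 6 hr). Untreated, Tob1 was at 8.37, 8.51, 8.32 and 8.37 in WT and 8.69, 8.71, 8.78 and 8.70 in Cpeb4-/- BMDMs, again without overlap, a difference of 0.33 (adjusted p = 0.025). That call was lost with no filter (adjusted p = 0.053), without WT mouse 25 or 88 and without any 1 of the 4 Cpeb4-/- mice, with values of 0.31 to 0.34 and adjusted p up to 0.089. At 1 and 3 hr the genotypes overlapped and the differences were 0.19 (adjusted p = 0.22) and 0.23 (adjusted p = 0.16). At 1 hr, WT mouse 69 was the highest of the 8 libraries at 8.76 and WT mouse 87, of the lowest length contrast, was the lowest at 8.24. With the covariate the Tob1 differences at 6 and 9 hr were 0.38 and 0.64, and that at 1 hr was -0.006 (adjusted p = 0.99). Tob1, like Cnot6 and Cnot8, lies on the chromosome of Cpeb4, at distances of 62.3, 17.7 and 26.2 Mb.

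Tob2, the closest relative of Tob1 and the 1 gene tested of 3 other BTG/TOB genes on the pathway list, was higher in Cpeb4-/- BMDMs at all 5 times. At 9 hr it was at 10.56, 10.71, 10.56 and 10.75 in WT and at 11.16, 11.29, 11.31 and 11.33 in Cpeb4-/- BMDMs. The genotypes did not overlap at any time, and the differences were 0.39, 0.41, 0.47, 0.52 and 0.63 at 0, 1, 3, 6 and 9 hr (adjusted p = 0.0046, 0.029, 0.013, 6.6e-05 and 0.00068). At 0, 6 and 9 hr the call held in all 16 alternative analyses. At 1 hr it was lost in 8 of them, among them those without WT mouse 25, 87 or 88 or Cpeb4-/- mouse 3, 55 or 62 (0.37 to 0.41), and at 3 hr in 3, those without Cpeb4-/- mouse 3 or 62 (0.45 and 0.46) and that with no filter (adjusted p = 0.052). Within groups Tob2 followed the length contrast at r = 0.75. With the covariate it was past the threshold at all 5 times, at 0.26 to 0.59. From 3 to 6 hr Tob2 rose by 0.80 in WT (adjusted p = 9.5e-09) and 0.85 in Cpeb4-/- BMDMs (adjusted p = 4.4e-12), where the Tob1 steps were -0.04 and 0.11.

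Btg1 was the other adaptor with a called difference. At 3 hr it was at 12.60, 12.71, 12.61 and 12.78 in WT and at 12.87, 13.01, 12.93 and 12.95 in Cpeb4-/- BMDMs, without overlap (0.27 ± 0.05, SE; adjusted p = 0.030), by 0.29 and 0.25 in the batches. That call was lost without WT mouse 25 or 87 and without each Cpeb4-/- mouse (0.24 to 0.29, adjusted p up to 0.11), and with batch as a covariate (adjusted p = 0.053) or no filter (0.069). The differences at 0, 1, 6 and 9 hr were 0.14, 0.23, 0.19 and 0.17, none past the threshold (adjusted p = 0.17, 0.067, 0.062 and 0.13). Btg2 was at -0.03, 0.01, 0.17, 0.10 and 0.06 over the 5 times, with no call. Its 95% interval at 1 hr, the time of its peak, was -0.15 to 0.16.

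The nuclease subunits gave 2 small calls, both at 6 hr, the time at which the length contrasts were alike. Cnot8 was at 10.45, 10.35, 10.43 and 10.40 in WT and at 10.56, 10.58, 10.51 and 10.55 in Cpeb4-/- BMDMs (0.14 in each batch and in all, 1.10-fold, adjusted p = 0.027), without overlap. Cnot7 was at 10.46, 10.42, 10.39 and 10.54 in WT and at 10.60, 10.60, 10.72 and 10.54 in Cpeb4-/- BMDMs (0.16, 1.12-fold, adjusted p = 0.041), by 0.07 and 0.25 in the batches. The lowest Cpeb4-/- library was above the highest WT library by less than the rounding. Both were past the threshold with the covariate (adjusted p = 0.012 for each), but neither was when the 40 libraries shared 1 estimate of the spread (adjusted p = 0.15 and 0.22) or with the mouse as a random effect (0.13 and 0.21). Leaving out WT mouse 69 or 88 or Cpeb4-/- mouse 2, 3 or 62 lost the Cnot8 call (0.12 to 0.14, adjusted p up to 0.083), and leaving out any mouse but WT 88 or Cpeb4-/- 62 lost that of Cnot7 (0.13 to 0.17, adjusted p up to 0.10), as did batch as a covariate (adjusted p = 0.064). At 1 hr Cnot1, Cnot6, Cnot6l and Cnot7 were higher in Cpeb4-/- BMDMs by 0.48, 0.49, 0.41 and 0.31, with overlap and adjusted p from 0.091 to 0.11. With the covariate the same differences were 0.05, -0.07, 0.04 and -0.02.

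**Figure D4:**
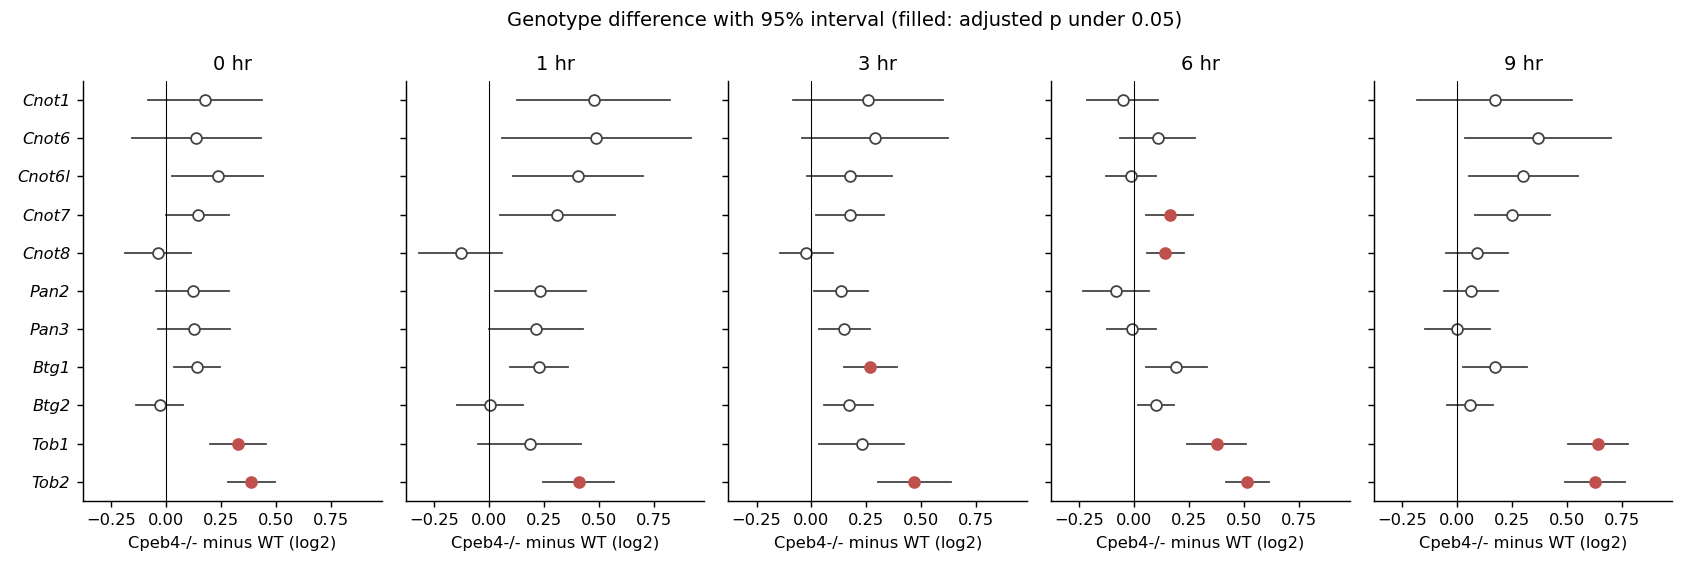
Difference between Cpeb4-/- and WT BMDMs (horizontal axis, log2) with its 95% interval for the 10 members and Tob2 (rows) at each time (panels). Filled points passed an adjusted p of 0.05. Tob2 passes in all 5 panels and Tob1 at 0, 6 and 9 hr, while Cnot1 to Cnot7 at 1 hr have wide intervals, from 0.05 to 0.92.

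Counted over the 10 members, the genotype comparison called 1 higher at 0 hr (all genes 0.741% higher and 0.565% lower), none at 1 hr (0.976% and 0.938%), 1 higher at 3 hr (1.81% and 1.87%), 3 higher at 6 hr (6.4% and 9.92%) and 1 higher at 9 hr (4.69% and 3.22%). None was lower at any time. At 1 hr the 10 members had 6 unadjusted p under 0.05 in limma and an adjusted p of at least 0.067. When all 40 libraries were fitted together, 7 were called higher at 1 hr, and 8 with the mouse as a random effect. For the genotypes the length contrast was a covariate only in the fits of the 8 libraries of a time. At 1 hr these called 0 without it and 0 with it. With the covariate the counts were 2 at 3 hr (Btg1 and Btg2), 4 at 6 hr (Cnot7, Cnot8, Btg1 and Tob1) and 3 at 9 hr (Cnot7, Cnot8 and Tob1). Without 1 mouse the count was 0 at 0 hr in 6 of 8 fits and ran from 0 to 3 at 1 hr (3 without WT mouse 69), from 0 to 6 at 3 hr (6 without WT mouse 88), from 1 to 3 at 6 hr (1 without Cpeb4-/- mouse 2 or 3) and from 1 to 5 at 9 hr (5 without Cpeb4-/- mouse 2). After quantile normalization 5 were higher at 6 hr, and the share of higher among all called genes went from 39.2% to 50.8%. Without the covariate the median difference of the members was above that of all genes at each time, at 0.23 against 0.02 at 1 hr and 0.10 against -0.02 at 6 hr. The members' differences at 1 hr then ran from -0.13 (Cnot8) to 0.49 (Cnot6). With the covariate they ran from -0.07 (Cnot6) to 0.18 (Btg1).

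Whether the members' responses to LPS differed between the genotypes was tested as an interaction, without and with the mouse as a block, since each mouse gave all 5 times. Without the block the interaction called 0 of 10 members at 1, 3, 6 and 9 hr in limma, with 0, 1, 0 and 1 unadjusted p under 0.05, against 0.00763%, 0.206%, 2.94% and 1.76% of all genes. The nearest was Tob1 at 9 hr, whose difference was larger than at 0 hr by 0.32 (95% interval 0.10 to 0.53; adjusted p = 0.12). With the mouse as a block Tob1 at 9 hr passed the threshold (0.32, adjusted p = 0.029), the 1 call among the members at the 4 times, as it did with the length contrast as a covariate (0.32, adjusted p = 0.026) and without the 4 libraries of lowest contrast (0.34, adjusted p = 0.032). With the covariate the interaction of Cnot6 passed at 6 hr (0.20, adjusted p = 0.029) and 9 hr (0.24, adjusted p = 0.0070), from -0.03 and 0.23 without it. After quantile normalization the share of higher among all interaction calls at 6 hr went from 30.6% to 44.9%. All these comparisons at 1 to 9 hr share the untreated libraries.

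The rest of the machinery was followed through 5 lists of 34 genes, described by counts. With LPS the decapping and 5′-to-3′ decay genes moved most together: 8 of 10 were higher and 1 lower at 6 hr in WT BMDMs (median 0.51), and 9 and 1 in Cpeb4-/- BMDMs (median 0.42), where 38.7% and 39% of all genes were higher and 39.2% and 40.1% lower. Xrn1, the cytoplasmic 5′-to-3′ exonuclease, rose 4.14-fold and Dcp2, the decapping enzyme, 3.16-fold in WT (adjusted p = 1.6e-08 and 3.6e-16). With the length contrast as a covariate these rises were 1.54 and 1.58 on the log2 scale, from 2.05 and 1.66 without it. At 1 hr, when 17.3% of all genes were higher and 16.6% lower in WT, 1 of the 10 was higher and 2 lower, Patl1 by 0.51 and Edc3 at -0.27 having the largest values. Of 7 other CCR4-NOT subunits 3 were higher and 1 lower at 6 hr in WT, with Tnks1bp1 at 0.83 and the ubiquitin ligase Cnot4 at 0.64 in front. At 1 hr 1 was higher (Cnot4, 0.20) and 1 lower (Cnot3, -0.20). Of 6 other genes listed as deadenylases, whose activity was not measured, 2 were higher and 3 lower at 6 hr in WT and 2 and 1 at 1 hr. Noct, known as a circadian and immediate early gene, was higher by 2.64 at 1 hr and 1.84 at 6 hr (adjusted p = 2.5e-14 and 1.3e-12) and the mitochondrial Pde12 by 0.46 and 0.52. Of 8 recruiters 5 were higher and 3 lower at 6 hr in WT. Samd4, which brings CCR4-NOT to stem-loop targets, was lower by 2.43 and the microRNA effector Tnrc6b by 1.79 (adjusted p = 2.4e-13 and 2.3e-13), while at 1 hr 2 were higher and 1 lower, with Samd4b at 0.49 and Samd4 at 0.36. Between the genotypes these 4 lists of 31 genes gave 2 calls in 5 times, where the shares of all genes called higher and lower ran from 0.741% and 0.565% at 0 hr to 6.4% and 9.92% at 6 hr: Dcp2 was lower in Cpeb4-/- BMDMs at 6 hr (-0.25, adjusted p = 0.014; 0.073 with no filter) and Dcp1a higher at 9 hr (0.31, adjusted p = 0.044). The Dcp1a call was lost in 9 of 16 alternative analyses, among them without each mouse but Cpeb4-/- 2 (0.27 to 0.32).

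**Figure D5:**
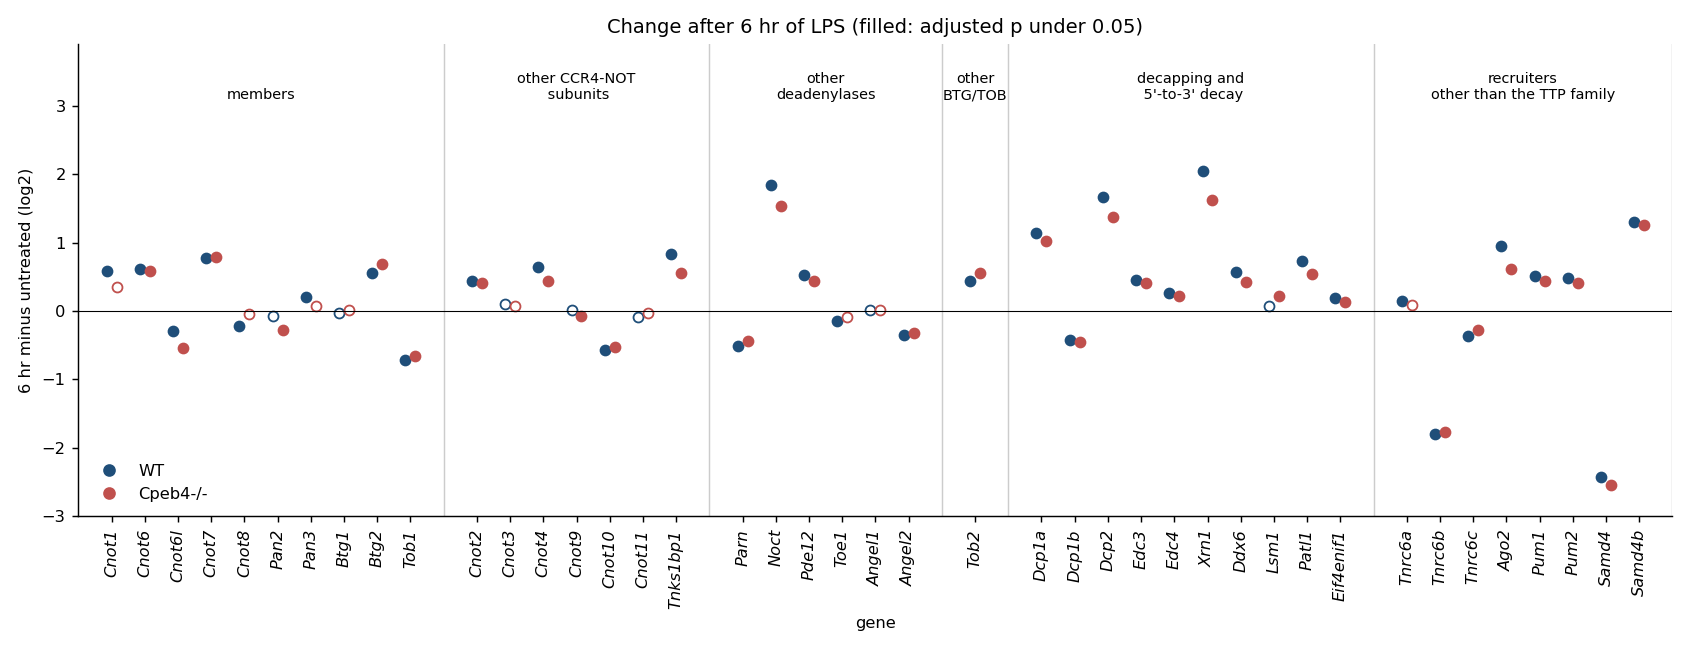
Change from untreated at 6 hr of LPS (vertical axis, log2) for the 10 members and the genes of the 5 lists (horizontal axis), in WT (blue) and Cpeb4-/- BMDMs (red). Filled points passed an adjusted p of 0.05. Xrn1 (2.05), Noct (1.84) and Dcp2 (1.66) in WT lie above every member, and Samd4 (-2.43) and Tnrc6b (-1.79) below.

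The patterns of the 3 adaptors over the 10 group means, each spanning at least 1, were set against 5963 other genes that do so. Nearest to Btg2 were the immediate early transcription factor Egr1 (r = 0.977), Pdzd2 (0.973) and the stress gene Gadd45a (0.970). Nearest to Btg1 were Gm16144 (0.981), Iglon5 (0.980) and 1700109H08Rik (0.975). Nearest to Tob1 were the death receptor gene Tnfrsf21 (0.950), Zfp532 (0.938) and the transcription factor Rfx3 (0.932). The 10 points share mice across times, and no p is given.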

How the data were processed

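Poly(A) RNA of BMDMs was sequenced by the authors in 50-base reads, after 8 amplification cycles, and aligned to mm10 with STAR 2.3.0e. The authors counted reads per gene with featureCounts and deposited log2 values from the regularized log of DESeq2, which shrinks genes of low count toward their mean. The deposited table has 27179 rows, 6395 of them at 0 in every library, and 958 without a symbol. It keeps no counts, so the depth is unknown, no counting interval is given, and DESeq2 was not run here.

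From these values, linear models were fitted over all genes with limma 3.58.1 in R 4.3.3 (lmFit, eBayes with trend), on genes averaging log2 of 5 or more on the rlog scale, with Benjamini-Hochberg adjustment over 13008 to 13118 genes and a threshold of 0.05. Genotypes were compared at each time over 8 libraries, times within a genotype over 20, and interactions over 40. Scripts were tested on simulated data. Mouse numbers pair libraries across times, since each mouse gave all 5: deviations from group means correlated at a median of 0.29 within a mouse and -0.09 between mice. Deviations from a group mean sum to 0 over its 4 mice, so the value between mice follows largely from that within a mouse. Genotypes share no mouse and no cage label. The 2 label batches hold 2 mice of each genotype. The tools were named in the submitters' processing notes. The steps between times, the length contrast as a covariate and the fit without 4 libraries were added after the values had been seen. Other settings tried were filters, quantile normalization, batch, mouse block, fits over other libraries and leaving out each mouse. Members, lists and tests were chosen with earlier results of these data known. All 10 members are named, the list genes by the 2 largest called changes per list and the pattern neighbours by the highest r. Locations are those of GENCODE vM21, and promoters those of RefSeq (GRCm38.p6). Figures were drawn with matplotlib 3.10.9.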

Additional observations from a re-analysis of the deposited data

Results flagged for a closer look

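Over the 100 groups of 4 libraries (10 members in 10 groups), 1 held a library far from the other 3: Btg1 in Cpeb4-/- BMDMs at 6 hr, where mouse 3 was at 12.71 and the others at 12.48 to 12.51. Chance flags about 1 group in 20. Mouse 3 had the highest Btg1 level of the 4 Cpeb4-/- mice at each of the 5 times.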

How the results depend on the processing

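Counts of members that differed between the genotypes moved most. With no filter on low values they were 0 at 0 hr and 0 at 3 hr (from 1 each). After quantile normalization they were 1 at 1 hr and 5 at 6 hr. With all 40 libraries in one fit they rose to 7 at 1 hr and to 3 at both 3 and 9 hr, and with batch as a covariate they were 0 and 3 at the latter times. With the length contrast as a covariate, chosen after seeing the data, they were 2 at 3 hr and 3 at 9 hr, and the interaction called 1 member at 6 hr and 2 at 9 hr. Without the 4 libraries of lowest contrast, also chosen after seeing the data, they were 0 at 3 hr, with 1 interaction at 9 hr. Leaving out each mouse gave 0 to 1 at 0 hr, 0 to 3 at 1 hr, 0 to 6 at 3 hr, 1 to 3 at 6 hr and 1 to 5 at 9 hr. For the changes from untreated it gave 5 to 8 at 6 hr in WT and 3 to 8 at 1 hr in Cpeb4-/- BMDMs, and the other counts with LPS kept within 1.5 times. The cause was not tested for any of these.

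The mouse numbers pair libraries across times. With the mouse as a replicate block the counts between genotypes reached 8 at 1 hr, 3 at 3 hr and 4 at the last time. All 40 libraries in one fit without the block gave 7, 3 and 3. With the block the interaction called 1 member, Tob1, at 9 hr. Of the values for single genes, Cnot7 and Cnot8 at 6 hr lost their calls with the block, as in the fit of 40 libraries without it. The block lost no other call.

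Signs turned in few of the called values, the adaptors' genotype and interaction tests and the named list genes. After quantile normalization Btg1 at 3 hr was at -0.24 in WT and -0.13 in Cpeb4-/- BMDMs, its WT step from 6 to 9 hr at 0.0017, Pan3 at 6 hr in WT at -0.092, and the Tob1 interaction at 6 hr at -0.0036. With the covariate the genotype difference of Tob1 at 1 hr was -0.006. That of Btg2 ran from -0.0605 to 0.0045 at 0 hr and from -0.0316 to 0.0621 at 1 hr without each mouse. Gene by gene, quantile normalization shifted the values by a median of up to 0.12, for the change from untreated at 6 hr in Cpeb4-/- BMDMs. There the median change of all genes went from -0.019 to -0.034. Of 120 member values not called, the sign changed in 14 after quantile normalization and in 27 with the covariate. Among the 27, of sizes up to 0.49, were the genotype differences at 1 hr of Cnot6 (0.49 to -0.07), Cnot7 (0.31 to -0.02) and Cnot8 (-0.13 to 0.09). The interaction of Cnot6 at 6 hr, given above, was also among them. Depth is unknown, and 4 mice per group limit what differences can be called.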
